A study of Caenorhabditis elegans with 2 samples.

Results

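The regions described here are 315 binding sites of a C. elegans transcription factor that lie between genes transcribed in opposite directions and carry no E-box. They were taken from the 4293 peaks of a chromatin immunoprecipitation sequencing (ChIP-seq) experiment that passed the authors' IDR comparison. That step compares how peaks rank between lists. Not every member was in both replicates' own lists: 311 of the 315 overlapped a peak in both. A peak was a member if it lay on 1 of the 5 autosomes, had no CACGTG within 100 bp of its summit, and had its summit in the promoter windows of at least 1 plus-strand and at least 1 minus-strand protein-coding gene. A promoter window ran from 1000 bp upstream to 200 bp downstream of the annotated gene start. The members were thus selected on the measured peak calls, summit positions and signals, so those values are given as descriptions and carry no test.

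The study made ChIP-seq libraries from whole worms at the last larval stage (L4), male and female pooled, in 2 biological replicates of 1 group, with no second condition. The strain was OP355, unc-119(tm4063) III; wgIs355, in which unc-119 is mutant on chromosome III and wgIs355 is an inserted transgene. DNA fragments of 150 to 350 bp were used, and the animals' age beyond the stage is given as unknown. The strain and antibody fields name mdl-1 as the factor, whereas the free-text description names a GFP fusion of ZK337.2, and the peak lists cannot tell which applies. Because whole animals were used, the cells in which a site was occupied are not known, and binding in few cells cannot be told apart from weak binding in many.

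MDL-1 belongs to the Mad-type proteins, which hold their partner through a helix-loop-helix and a leucine zipper; its partner is the Max-like protein MXL-1. Dimers of this network bind the E-box CACGTG and Mad-type proteins are known as repressors of transcription. In the compact worm genome many neighbouring genes start back to back and share the sequence between them, so that a single bound site is upstream of both. Many worm messages receive a spliced leader, so an annotated start can lie downstream of the place where transcription begins.

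Some of the strongest members are shown here at the level of sequence. Of the named pairs, 8 are given below from the RefSeq sequence of ce11 (WBcel235), plus strand, as the stretch around the summit that lies outside annotated exons of coding genes. None holds CACGTG, by the rule. They were picked to show the range from sites with several of the short words discussed further on to sites with few. Capitals mark, on either strand, the GA repeat GAGAGA, the panel words ACGCAG and AGACGC with CGTCTC, the alternation GCGCGC, and the words GCGCAC, then CGCTCC, then ACCGTA; words can share letters.
K01G5.10/tasp-1: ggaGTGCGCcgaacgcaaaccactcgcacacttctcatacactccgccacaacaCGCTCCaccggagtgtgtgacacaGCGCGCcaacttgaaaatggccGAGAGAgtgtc
iff-2/F54C9.14: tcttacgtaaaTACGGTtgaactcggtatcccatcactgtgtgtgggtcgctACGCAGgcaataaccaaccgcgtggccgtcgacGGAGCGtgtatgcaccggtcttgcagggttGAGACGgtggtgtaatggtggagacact
nhl-2/tag-340: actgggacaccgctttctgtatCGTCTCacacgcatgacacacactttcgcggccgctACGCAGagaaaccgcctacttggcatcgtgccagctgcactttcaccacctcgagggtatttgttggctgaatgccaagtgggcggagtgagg
rpl-15/K11H12.8: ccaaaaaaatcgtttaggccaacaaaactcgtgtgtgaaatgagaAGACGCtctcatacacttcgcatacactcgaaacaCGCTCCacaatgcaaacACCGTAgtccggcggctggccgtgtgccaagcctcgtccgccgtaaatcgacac
ska-3/rps-12: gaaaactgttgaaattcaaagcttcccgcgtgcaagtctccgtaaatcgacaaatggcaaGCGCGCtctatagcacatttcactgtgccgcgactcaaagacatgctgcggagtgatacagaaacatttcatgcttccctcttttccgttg
ifet-1/rps-3A: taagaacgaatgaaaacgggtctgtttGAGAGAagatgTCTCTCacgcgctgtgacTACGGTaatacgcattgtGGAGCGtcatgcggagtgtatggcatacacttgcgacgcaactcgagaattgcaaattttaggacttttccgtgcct
dlc-1/nduf-2.2: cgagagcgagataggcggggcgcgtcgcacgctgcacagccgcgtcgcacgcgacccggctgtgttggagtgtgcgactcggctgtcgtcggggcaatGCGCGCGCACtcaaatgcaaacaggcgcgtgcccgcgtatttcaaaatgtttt
par-5/M117.3: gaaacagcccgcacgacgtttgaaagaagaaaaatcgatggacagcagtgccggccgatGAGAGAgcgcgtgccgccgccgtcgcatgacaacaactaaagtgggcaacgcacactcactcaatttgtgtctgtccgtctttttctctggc

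The stretch upstream of tasp-1, at III:10759196-10759306, held 4 of these words and was 58.6% G and C. The rpl-15/K11H12.8 stretch, IV:654844-654994, held 3 of the words and was 51.7% G and C. In the dlc-1/nduf-2.2 stretch, III:6464347-6464497, the capitals came from overlapping words in 1 run, and 64.2% of its letters were G or C. The par-5/M117.3 stretch, IV:11822008-11822158, held a lone GA repeat.

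At III:10759052-10759508, in the gap of K01G5.10 and tasp-1, the members' highest signal, 897, was found, rank 6 of all IDR peaks. Its signal was 499 in replicate 1 and 400 in replicate 2, in lists called separately, whose values run lower than those of the pooled list. The summit lay 36 bp upstream of tasp-1, which encodes a homologue of the protease taspase, and 749 bp upstream of K01G5.10, annotated as a haloacid dehalogenase-like hydrolase. Signal is the peak caller's value in the deposited lists, on a scale that the labels do not explain.

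Translation genes stood at several of the next strongest members. The iff-2/F54C9.14 peak, II:8561282-8561590, reached 575 in the pooled list, 305 in replicate 1 and 269 in replicate 2. Its summit lay 68 bp upstream of iff-2, which encodes a translation initiation factor. The rpl-15/K11H12.8 peak, IV:654761-655061, reached 454 in the pooled list, 240 in replicate 1 and 216 in replicate 2; rpl-15 encodes a large-subunit ribosomal protein. At ska-3/rps-12, III:5679018-5679266, the signal was 334, with 176 in replicate 1 and 160 in replicate 2. There the small-subunit gene rps-12 started 173 bp from the summit, and ska-3, which encodes a spindle and kinetochore protein, started 120 bp from it. At ifet-1/rps-3A, III:4475551-4475788, the signal was 292, with 140 in replicate 1 and 151 in replicate 2. Here both genes serve translation, since ifet-1 encodes a translational repressor and rps-3A a small-subunit protein.

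Further strong members stood at genes of varied function. The nhl-2/tag-340 peak, III:4899698-4900132, reached 568 in the pooled list, 293 in replicate 1 and 281 in replicate 2. Its starts were 1423 bp apart, 841 bp and 582 bp from the summit, and nhl-2 encodes a cofactor of microRNA silencing. The epc-1/Y111B2A.12 peak reached 370, with 166 in replicate 1 and 204 in replicate 2, and epc-1 encodes an Enhancer of Polycomb-like protein. The malt-1/ceh-38 peak, 361, had its summit 24 bp inside ceh-38, which encodes a ONECUT homeodomain protein. The ecps-1/atx-2 peak, 278, had its summit 8 bp upstream of atx-2, the worm ataxin-2 gene. The peak at rab-18/kbp-4, 273, also fell in the window of the polarity gene par-2, downstream of kbp-4 on the same strand.

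The remaining members of the strongest 15 ranged from 259 at dlc-1/nduf-2.2 to 220 at rpl-10a/Y71F9AL.9. The dlc-1 gene encodes a dynein light chain and nduf-2.2 a subunit of respiratory complex I. At par-5/M117.3 both genes encode proteins of the same phosphopeptide-binding family, and the signal was 242, with 140 in replicate 1 and 105 in replicate 2. The ZK688.5/fahd-1 peak had 235.0 in the pooled list and, like the epc-1 and ifet-1 peaks, was higher in replicate 2, at 132, than in replicate 1, at 105. The rps-19/hsr-9 peak had 234, with 140 in replicate 1 and 93.2 in replicate 2. In 12 of these 15 members replicate 1 gave the higher value.

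**Figure D1:**
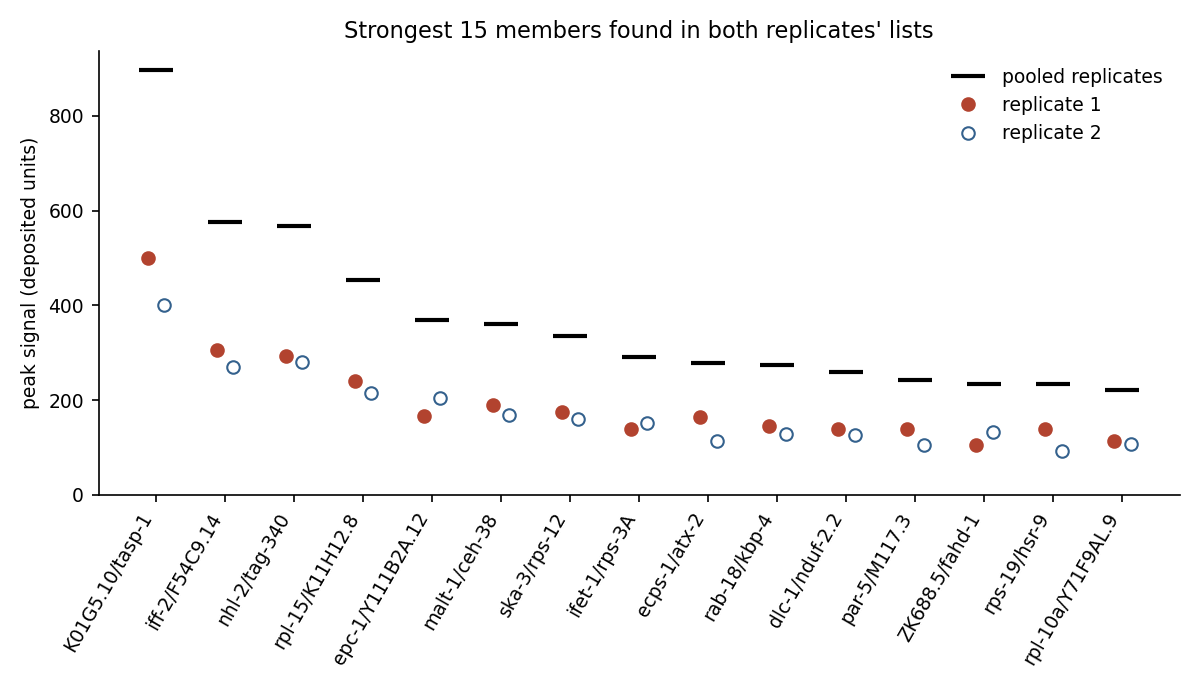
Peak signal (vertical axis, deposited units) of the strongest 15 members found in both replicates' lists, ordered by pooled signal; dashes are the pooled list, filled points replicate 1 and open points replicate 2. Pooled values run from 897 at K01G5.10/tasp-1 to 220 at rpl-10a/Y71F9AL.9, and replicate 1 is the higher in 12 of 15.

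Across all 315 members, pooled signal ran from 45.6 to 897 with a median of 77.1 and quartiles of 56.2 and 114.7. The 883 autosomal peaks without an E-box in promoter windows of 1 strand only had a median of 69.3, and the 1450 outside promoter windows had 71.1. The 36 autosomal divergent peaks that did carry an E-box had a median of 117. E-boxes were less frequent among the authors' divergent autosomal peaks, in 36 of 351 (10.3%, exact 95% interval 7.29 to 13.9), than among one-strand promoter peaks, in 206 of 1089 (18.9%, 16.6 to 21.4), or peaks outside windows, in 367 of 1817 (20.2%, 18.4 to 22.1). These shares are descriptions, since the rule used the E-box, and the intervals cover counting error only.

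At the edges of the rule, the 3 weakest members had signals of 45.62, 45.64 and 45.75. The 3 pooled peaks next below the IDR list that met the other criteria had 45.42, 45.16 and 45.11, and in all 733 such peaks lay below it. The closest E-boxes to member summits had centres 117 and 131 bp away, against 92 and 90 bp for the farthest among excluded divergent peaks. In 236 members, the 1000 bp to each side of the summit held no E-box. A window of 1100 bp upstream would add 17 peaks, with a median signal of 68.5.

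Replicate lists held nearly all members. Of the 315 members, 311 (98.7%, exact 95% interval 96.8 to 99.7) overlapped a peak by at least 1 bp in both replicates' lists, against 3968 of the 3978 other IDR peaks (99.7%, 99.5 to 99.9). These lists are long, with 29572 and 28282 peaks, and were made as inputs to the IDR step. When each was held to its strongest 4293 peaks, 229 of 315 members (72.7%, 67.4 to 77.5) and 3018 of 3978 other IDR peaks (75.9%, 74.5 to 77.2) were overlapped in both. The members without an overlap were ctf-4/eef-1G, akap-17A/C07H6.2 and pbs-7/F39H11.1, which lacked one in replicate 2, and rpb-12/aly-2, which lacked one in replicate 1. The strongest of these, ctf-4/eef-1G, had a pooled signal of 118.8 and 56.0 in replicate 1; eef-1G encodes a subunit of a translation elongation factor.

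Replicate 1 over replicate 2, as a log2 ratio, was 0.12 at the median of the 311 members (SD 0.51), against 0.10 across the other IDR peaks (SD 0.55). It exceeded 2-fold in either direction in 19 members. The widest was at ztf-9/ZK287.7, with 49.2 in replicate 1 and 13.6 in replicate 2, named here after its value was seen. Summits of the replicate peaks lay a median of 9 bp (replicate 1) and 8 bp (replicate 2) from the member summit. A width of 396 bp was shared by 280 members, so peak width carried little information.

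The member summits lay close to both starts, as the rule requires. The nearest plus-strand and minus-strand starts were a median of 564 bp apart (quartiles 350.5 and 792.5, range −125 to 1771). The summit lay between the starts in 287 members (91.1%). Over all members the summit was a median of 150 bp from the nearer start and 384 bp from the farther one. Where it lay between the starts, its median position was 0.297 of the gap from the nearer start. The nearer start belonged to the plus strand in 158 members and to the minus strand in 154, and 3 were equal.

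By annotation, 281 summits were intergenic, 25 in a 5′ UTR, 7 in an intron and 2 in a coding exon. Members lay in the windows of 642 genes. Their nearest opposite-strand genes formed 312 distinct pairs, of which 3 pairs held 2 members each. Of the 315 members, 297 had 1 gene on each strand and 18 had 3 genes. At his-67/his-68, for example, a pair of histone genes shared the site with alg-5, an Argonaute gene on the same strand as his-68.

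**Figure D2:**
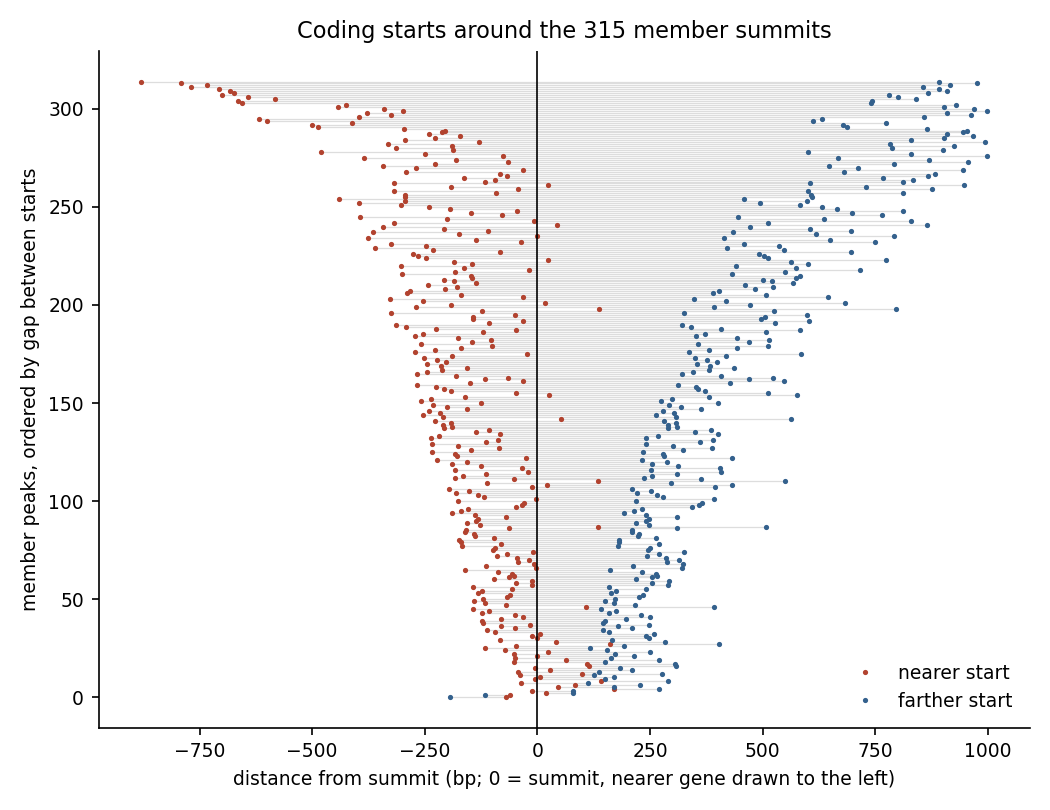
Distance from the summit (horizontal axis, bp) of the nearer and farther coding start for each of the 315 members, ordered by the gap between starts; the nearer start is drawn to the left unless the summit lies inside that gene. The nearer starts sit at a median of 150 bp and the farther ones at 384 bp, and the summit lies between them in 287 members.

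In 103 of 315 members (32.7%) the summit had a coding start within 100 bp, against 168 of 883 one-strand promoter peaks (19.03%), and the nearest start was a median of 150 bp away in members against 257 bp. A member has at least 2 starts that can be near it, so these values describe the rule as much as the sites. Another IDR summit lay within 1000 bp of 21 members (6.67%) and of 116 one-strand promoter peaks (13.1%).

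Member density was set against the space open to them. Sequence shared by opposite-strand windows made up 2.39% of the autosomes and held 159 members per Mb. Sequence in windows of 1 strand only held 53.8 peaks without an E-box per Mb, and the rest of the autosomes held 22.6 per Mb. By chromosome, the members numbered 75 on III, 67 on V, 59 on IV, 58 on II and 56 on I. Per Mb of shared window, III had the most, 231, and V the fewest, 121. With each chromosome cut in 3 equal parts, members lay in the middle one in 48.3% of cases, against 46.7% of one-strand promoter peaks and 41.0% of coding genes with overlapping windows.

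Of the 2882 opposite-strand gene pairs with overlapping windows, 330 (11.5%) had a member in both windows, and the share changed with the gap. Pairs with starts 251 to 500 bp apart had a member in 113 of 528 cases (21.4%), the highest share of the 6 bins. Pairs 501 to 1000 bp apart had one in 136 of 821 (16.6%), and pairs 1 to 250 bp apart in 29 of 364 (7.97%). At 1501 to 2000 bp, where the shared window becomes short, the share was 8 of 527 (1.52%). A pair's shared window is itself set by the gap, so no test was made.

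**Figure D3:**
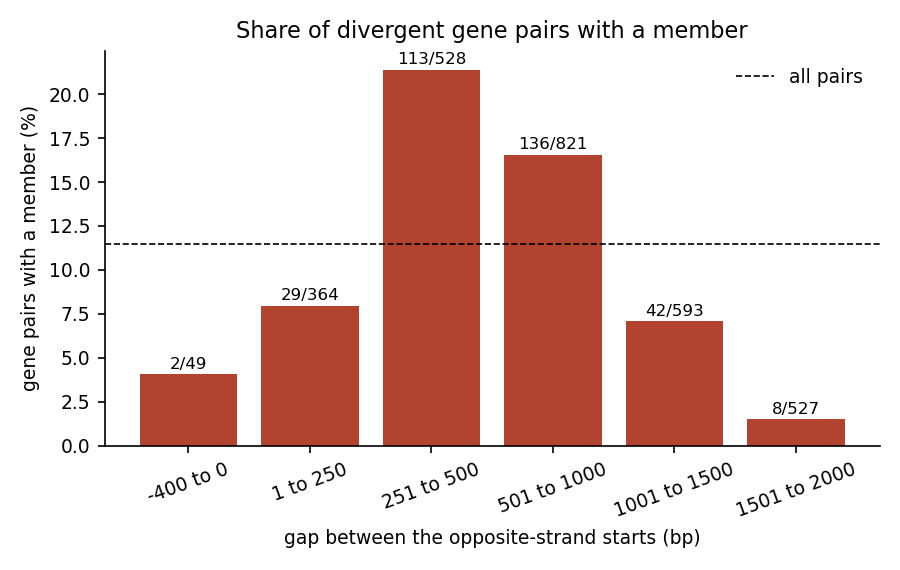
Share of opposite-strand gene pairs with overlapping windows that had a member in both windows (vertical axis, %), by the gap between their starts (horizontal axis, bp); the numbers above the bars are pairs with a member over all pairs, and the dashed line is the share over all 2882 pairs, 11.5%. The bar for 251 to 500 bp is the highest at 21.4%.

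Among the genes at members, those for the cytosolic ribosome had the highest shares of all autosomal genes among the 44 lists examined, and of genes with an overlapping window among the lists with at least 10 of these. Members lay in the windows of 15 of 32 autosomal small-subunit ribosomal protein genes (46.9%) and 22 of 51 large-subunit genes (43.1%). Over all 17242 autosomal coding genes the share was 3.72%. Only a gene with a window overlapping one of the opposite strand can have a member; over those 5285 genes the share was 12.1%, against 15 of 21 small-subunit (71.4%) and 22 of 34 large-subunit genes (64.7%). The median signal at member genes was 92.3 for the small-subunit and 70.5 for the large-subunit list, beside 75.5 over all 642 genes. Counting IDR summits of every class, 20 small-subunit and 34 large-subunit genes had a summit, so peaks at these genes were not confined to members.

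The ribosomal proteins form the protein part of the ribosome, and their genes are among the most highly expressed in any growing cell. Ribosomal protein genes stood at 34 members. In 3 of these both strands held one, at rps-10/rpl-24, rps-14/rpl-36 and rpl-39/fau-1, where fau-1 encodes a small-subunit protein fused to a ubiquitin-like one. Among the 31 with ribosomal protein genes on 1 strand only, the summit was nearer the partner gene in 20 and nearer the ribosomal protein gene in 11. The median distance was 292 bp to the ribosomal protein start and 192 bp to the partner start.

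Other genes of protein synthesis had lower shares, though above 3.72% over all autosomal coding genes and 12.1% over those with an overlapping window. Translation factors had members at 9 of 43 autosomal genes (20.9%), or 9 of the 26 with an overlapping window (34.6%). Their median signal was 118.8. Beside iff-2 and ifet-1 they included eef-1A.1, an elongation factor gene (194), and eef-1B.1 (126). Ribosome biogenesis and nucleolar genes had members at 7 of 44 (15.9%), or 7 of 23 (30.4%). Among them were fib-1, the fibrillarin gene (58.9), and dkc-1, which encodes a pseudouridine synthase (70.9). Mitochondrial ribosomal proteins had members at 7 of 67 (10.4%), or 7 of 28 (25%). Aminoacyl-tRNA synthetases had them at 3 of 32 (9.38%), or 3 of 15 (20%), with aars-1 at 138.

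Genes of protein folding, turnover and transport differed in their shares. Chaperone genes had members at 12 of 65 (18.5%), or 12 of the 35 with an overlapping window (34.3%). Among them were the cytosolic chaperonin subunits cct-1, cct-6, cct-7 and cct-8 and the mitochondrial chaperones hsp-6 and hsp-60. Proteasome subunits had members at 8 of 33 (24.2%), or 8 of 24 (33.3%), the strongest at rpt-2 (97.7), an ATPase of the regulatory particle. Ubiquitin conjugation genes had members at 2 of 50 (4%), near 3.72% over all genes, or 2 of the 23 with an overlapping window (8.70%), below 12.1%. Vesicle trafficking genes had members at 16 of 108 (14.8%), or 16 of the 54 with an overlapping window (29.6%). Among them were the small GTPase genes rab-1, rab-5, rab-11.1 and rab-18 and the translocon genes sec-61.A and sec-61.B. Nuclear pore and transport genes had members at 11 of 43 (25.6%), or 11 of 28 (39.3%), with the exportin gene xpo-1 at the top of the list at 131.

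Shares in energy metabolism are set beside 3.72% over all genes and 12.1% over those with an overlapping window. Respiratory chain and ATP synthase genes had members at 12 of 61 (19.7%), or 12 of the 39 with an overlapping window (30.8%). They included 4 genes of the ATP synthase (atp-1, atp-2, atp-3 and atp-5), mev-1 of complex II and isp-1 of complex III. Citric acid cycle and glycolysis genes had members at 4 of 31 (12.9%), or 4 of 14 (28.6%), namely aco-2, mdh-1, mdh-2 and pyk-2. The nutrient-sensing list of TOR and AMP-activated kinase genes had members at 4 of 16 (25%), namely ragc-1 (122), rheb-1, aakb-2 and flcn-1. Only 6 genes of that list had an overlapping window.

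Shares among genes of chromatin, RNA processing and division varied. Histone modification genes had members at 7 of 57, or 7 of the 18 with an overlapping window (38.9%), with lin-53, the gene of a histone-binding WD repeat protein, at 154. Spliceosome and SR protein genes had members at 6 of 56, or 6 of the 35 with an overlapping window (17.1%). DNA replication and cell cycle genes had them at 8 of 81, or 8 of 40 (20%), among them the cyclin E gene cye-1 and the E2F-like gene efl-1. Histones had members at 4 of 77 (5.19%), or 4 of the 65 with an overlapping window (6.15%). Chromosome segregation genes had them at 3 of 63 (4.76%), or 3 of 38 (7.89%). Both lists were above 3.72% over all genes and below 12.1% over those with an overlapping window. Of 30 bHLH genes, 4 of them with an overlapping window, only aha-1, the worm partner of the aryl hydrocarbon receptor, had a member (122).

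For several large families the shares differed by whether all genes or those with an overlapping window were counted. Nuclear hormone receptors had members at 5 of 247 genes (2.02%), or 5 of the 45 with an overlapping window (11.1%). Cuticle collagens had members at 4 of 145 (2.76%), or 4 of 39 (10.3%). Neuropeptides and insulin-like peptides had them at 2 of 111 (1.80%), or 2 of 15 (13.3%), with both genes at the same peak. These shares were below 3.72% over all genes but near 12.1% over those with an overlapping window. Chemoreceptors were below on both counts, with members at 8 of 1278 (0.626%), or 8 of 294 (2.72%). Among 92 sperm genes, 45 of them with overlapping windows, none had a member. Endoplasmic reticulum stress (12 genes), autophagy (27) and insulin pathway genes (10) had none either, although only 4, 5 and 3 of them had a window in which a member could lie. Over all 44 lists, 220 of 3633 listed genes (6.06%) had a member.

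**Figure D4:**
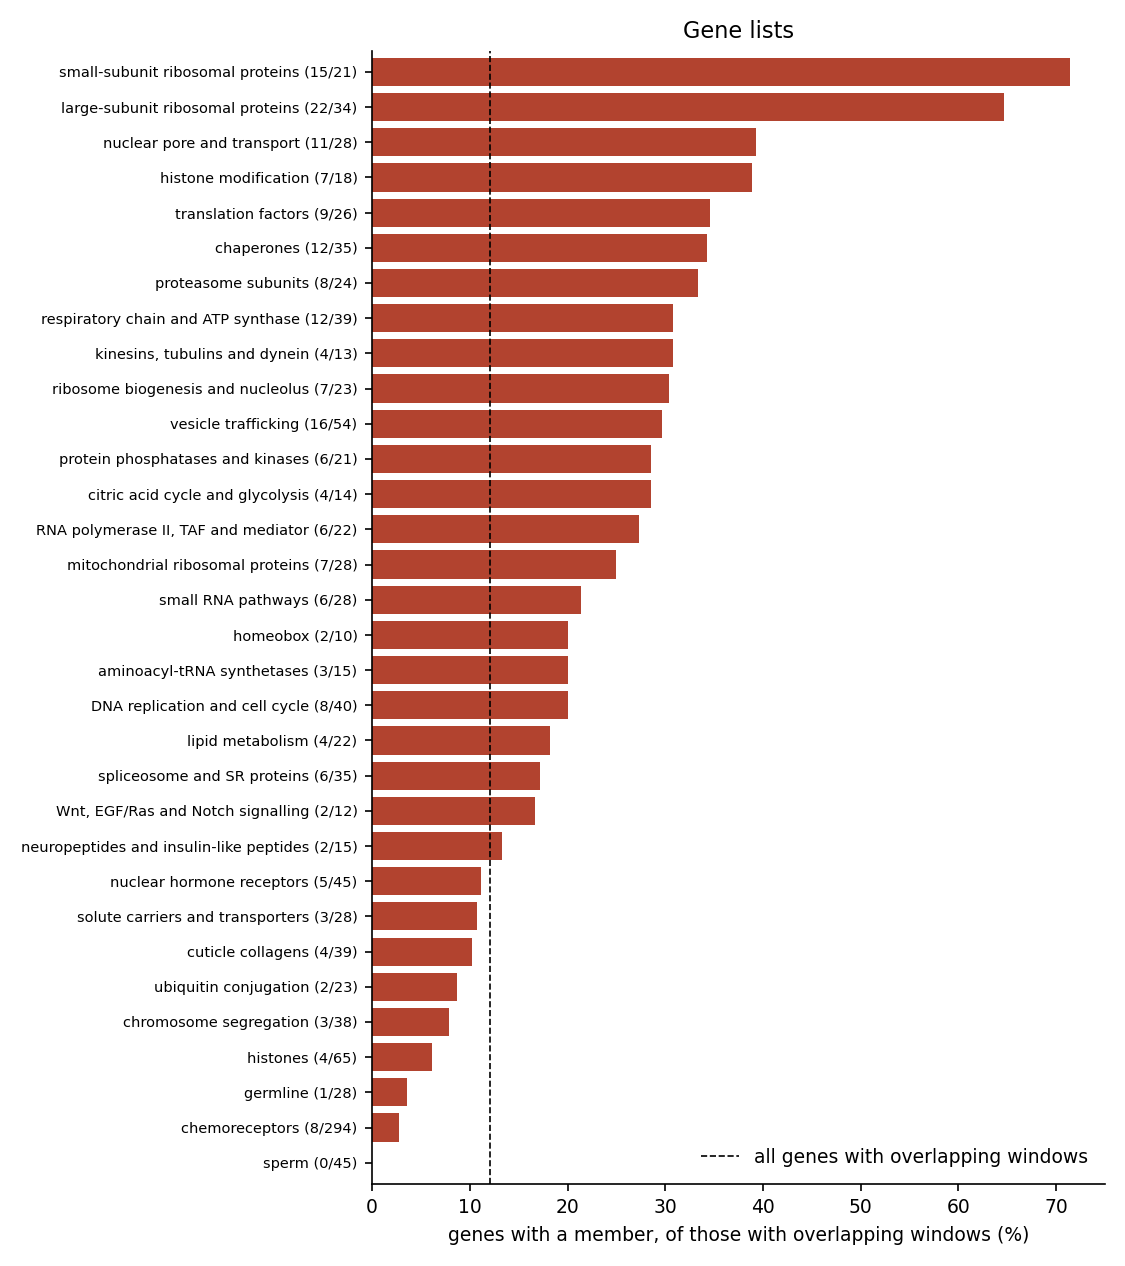
Share of genes with a member among the genes of each list whose window overlaps an opposite-strand window (horizontal axis, %), for lists with at least 10 such genes; brackets give genes with a member over such genes, and the dashed line is the share over all 5285 such genes, 12.1%. The small-subunit (71.4%) and large-subunit (64.7%) ribosomal protein lists are at the top and the sperm list is at 0.

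Both sides of the site belonged to a list in 39 members. Some joined genes of the same kind, as at rsp-2/rsp-1, which both encode SR splicing factors (119.02, with 68.2 in replicate 1 and 48.2 in replicate 2). At nlp-34/nlp-31, both neuropeptide-like genes, the signal was 116, with 65.2 in replicate 1 and 50.8 in replicate 2. The eef-1A.1/rfc-4 peak joined an elongation factor with a subunit of the clamp loader of DNA replication, at 194, with 98.1 in replicate 1 and 97.4 in replicate 2.

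Other pairs joined different processes. The rpl-9/lpd-7 peak, 145, lay between a large-subunit gene and a ribosome biogenesis gene. The sec-61.A/rps-18 peak, 138, lay between a translocon gene and a small-subunit gene, with 53.7 in replicate 1 and 83.6 in replicate 2. Signals of 137 at rps-20/ekl-4, 126 at eef-1B.1/aco-2 and 116 at mig-5/cct-1 belonged to the same range. The pairs rpl-7A/set-21 (100.2), rpt-2/aps-1 (97.7) and snx-13/snr-1 (94.4) were weaker. Of these, rpt-2/aps-1 differed between replicates by more than 2-fold, with 66.7 in replicate 1 and 28.5 in replicate 2.

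Short words near the summit were the measure that the rule had not used, apart from the E-box. The share of members with each of 18 panel motifs within 100 bp of the summit, on either strand, was compared with that of the 883 one-strand promoter peaks by a two-sided Fisher's exact test with Benjamini-Hochberg adjustment over the panel. Of the 18 motifs, 9 (50%) differed at an adjusted p under 0.05. The peaks are regions of 1 pooled call set and not replicates of a condition, so these p-values describe the regions of this call set.

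More frequent in members were 4 of the 9 motifs. GCGCGC stood in 50 of 315 members (15.9%) against 79 of 883 one-strand promoter peaks (8.95%; exact test, adjusted p = 0.00594). TTGGCG, part of an E2F-type site, stood in 14.3% of members against 8.95% (exact test, adjusted p = 0.0215). The T run TTTTTT stood in 202 members (64.1%) against 450 one-strand peaks (50.96%; exact test, adjusted p = 0.00103). The T run also stood in 55.2% of windows centred 400 bp beside the member summits and in 66.8% of the midpoints of divergent gaps that held no IDR summit. TTTCAG, the letters of the worm splice acceptor, stood in 19.4% of members against 13.5% (exact test, adjusted p = 0.0333), and in 46.0% of windows beside members and 33.3% of those gap midpoints. In the windows beside members and at the gap midpoints GCGCGC stood in 1.11% and 3.24%, and TTGGCG in 7.14% and 7.005%. The nearer start lay within 200 bp of the summit in 207 members, so there the window on that gene's side lay past its start.

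The other 5 were less frequent in members. The GA repeat GAGAGA stood in 105 members (33.3%) against 383 one-strand peaks (43.4%; exact test, adjusted p = 0.00944), but in 10.95% of the windows beside members. TGATAA, the site of GATA factors, stood in 46 members (14.6%) against 217 one-strand peaks (24.6%; exact test, adjusted p = 0.00169), and in 17.1% of the windows beside members. CGTCTC stood in 23.8% against 32.4% (exact test, adjusted p = 0.0138), AGACGC in 18.7% against 26.0% (exact test, adjusted p = 0.0215) and the E-box variant CACATG in 11.4% against 18.2% (exact test, adjusted p = 0.0138). The GA repeat and the GC-rich words can share letters where they adjoin, so their counts are not separate. The word CGTCTC reads GAGACG on the other strand. That form can share letters with AGACGC, which can share letters with ACGCAG, so these words are not separate evidence either. The 8-letter word AGACGCAG, which holds ACGCAG, stood in 10.5% of members against 18.8% of one-strand peaks. The word GAGACGCA stood in 9.84% against 17.2%. Neither of these longer words was tested.

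ACGCAG, the other common word, stood in 80 members (25.4%) against 233 one-strand peaks (26.4%; exact test, adjusted p = 0.894), a difference of −0.99 percentage points. It stood in 2.86% of the windows beside members and in 5.46% of 2070 windows at the midpoints of divergent gaps that held no IDR summit. The E-box variant CACGCG, the GC box GGCGGG and the CCAAT box did not pass the test, with 14.9% against 13.3%, 10.2% against 10.3% and 7.30% against 6.12%.

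The count of 9 motifs depended on the setting. Without replicate 1 it was 4, namely the GA repeat, the T run, the alternation GCGCGC and the GATA site. At or above the median IDR signal it was 2, the GA repeat and the T run, and within 50 bp of the summit it was 2, the alternation GCGCGC and the GATA site. When both classes were limited to summits 100 to 400 bp upstream of the nearest start, an alternative added after the data were seen, none of the 18 motifs passed Fisher's exact test after adjustment (smallest adjusted p = 0.268), and 2 had an unadjusted p under 0.05. This narrower comparison held 183 members and 420 one-strand promoter peaks. The 9 motifs kept their direction in it: GAGAGA stood in 33.3% of members against 39.8%, TGATAA in 15.8% against 23.6% and GCGCGC in 13.7% against 9.29%. Distance to the nearest start differed between the classes, as given above.

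**Figure D5:**
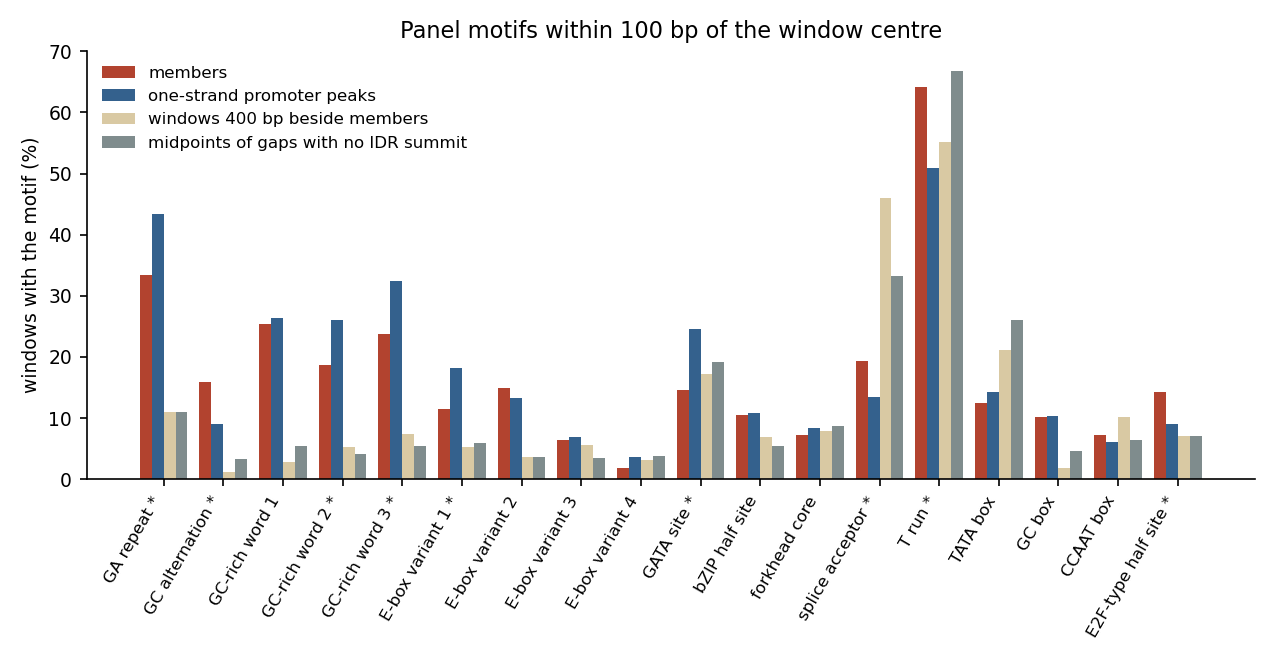
Share of windows with each panel motif within 100 bp of the centre (vertical axis, %) in members, one-strand promoter peaks, windows centred 400 bp beside member summits, and midpoints of divergent gaps with no IDR summit; asterisks mark the 9 motifs that differed between members and one-strand promoter peaks. Word 1 is ACGCAG, word 2 is AGACGC and word 3 is CGTCTC; E-box variant 1 is CACATG, variant 2 is CACGCG, variant 3 is CAGCTG and variant 4 is CATATG; the GA repeat stands at 33.3% in members against 43.4% and 10.95% beside members.

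Members were divided by their leading words. The GA repeat was present without the words ACGCAG and AGACGC, or the word CGTCTC, in 54 members (17.1%), 1 or more of those 3 words without the GA repeat in 73 (23.2%), both in 51 (16.2%) and neither in 137 (43.5%). The median signal was 67.7 in members with neither, 90.1 in those with the GA repeat alone, 86.7 in those with the 3 words alone and 79.5 in those with both. By quartile of signal, the GA repeat was found in 26.6% of the weakest members, 29.1% and 39.7% of the next groups and 37.97% of the strongest. GCGCGC was concentrated near the summit, with 47 of its 84 occurrences within 500 bp lying within 50 bp of the summit and 4 lying 400 to 500 bp away.

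A scan of 2080 6-letter words was made after the panel and is reported as a description. Only the 609 words found in at least 30 members were ranked, a filter that used the members themselves. The ranking was by the ratio of a word's share in members to its share in the windows beside them. Many of those windows lay past the nearer gene start, as given above. CGCGCG came first with 10.5% against 0.635%, followed by GCGCGC with 15.9% against 1.11%. Set against one-strand promoter peaks, and ranked by the difference in percentage points instead of the ratio, AT-rich words led: TAAAAA stood in 49.2% of members against 32.7%. It was more common still in the windows beside members, at 51.9%, and in divergent gaps without an IDR summit, at 57.6%. Among words with at least 3 G or C letters, GCGCAC stood in 23.8% of members against 11.8%, ACCGTA in 17.1% against 5.78% and CGCTCC in 19.4% against 8.83%. In divergent gaps without an IDR summit, GCGCAC stood in 5.60% of windows, ACCGTA in 7.92% and CGCTCC in 4.64%. Words of alternating A and G were at the other end, with AGAGAA in 34.0% of members against 47.7% of one-strand promoter peaks.

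The median share of G and C in the 200 bp around the summit was 42% in members and 42% in one-strand promoter peaks. The windows beside members had 36% and the gaps without an IDR summit 33.5%. Soft-masked letters, which mark repeated or low-complexity sequence in the RefSeq genome, made up a mean of 29.1% of member windows against 21.6% of one-strand promoter windows, 28.2% of windows beside members and 37.8% of gaps without an IDR summit. Soft-masked shares were also split by longer words that were more frequent in members. Member windows with GCGCTCCA, which holds CGCTCC, had a median soft-masked share of 46.25% (24 members), against 27.5% in those without. With AAGTGCGC, which holds GCGCAC on the other strand, it was 38.5% (27 members) against 25.5%. With GGAGCGCA, which holds CGCTCC on the other strand, it was 34.25% (18 members) against 28%. The part of soft-masked sequence in the word shares was not tested.

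Word shares were also set out for members at ribosomal protein genes and for the other members, a split made after the data were seen and given without a test. GAGAGA stood in 3 of 34 such members (8.82%) against 102 of 281 others (36.3%). TTTTTT stood in 29 of 34 (85.3%) against 173 of 281 (61.6%). ACGCAG, by contrast, stood in 26.5% and 25.3%. The median signal was 78.4 with a ribosomal protein gene and 75.8 without, and the median gap between starts was 523.5 bp with one and 578 bp without.

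Starts of RNA genes without coding potential were also counted. Those of the broad ncRNA biotype lay within 500 bp of 56 members (17.8%), against 13.9% of one-strand promoter peaks. A tRNA start lay within that distance of 2 members (0.635%), against 15 one-strand promoter peaks (1.70%). A snoRNA start lay within that distance of 9 members (2.86%), against 20 one-strand peaks (2.27%), and a microRNA start within it of 5 members (1.59%), against 6 (0.680%).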

How the data were processed

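The data were ChIP-seq peak lists of 2 biological replicates of 1 group, on ce11. Per the deposited file descriptions, the authors called peaks for either replicate alone against a control, called a pooled list on both, and derived the IDR list from these. The signal of each peak is the authors' own deposited value. The deposited −log10 q values ran from 3.07 to 3.80 among members and chose nothing. Which caller, aligner and IDR threshold were used is not given in the sources here; read depth is unknown. A replicate value is the strongest peak overlapping the member by at least 1 bp, so its precision is limited to the spread between 2 replicates. All 4293 IDR peaks stood in the pooled list of 27577.

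Gene starts came from Ensembl release 115, symbols from RefSeq for 19965 of 19973 coding genes, and sequence from RefSeq (ce11, WBcel235). Members and all lists were chosen with earlier results of these data known. The lists were filled by patterns of gene symbols, so a symbol can place a gene in a list that does not match its function. Named genes were those at the strongest 15 members found in both replicates, up to 2 of the strongest members of each list and up to 12 pairs with a listed gene on each strand; other genes were named after their values were seen. Motif shares used windows of 100 bp to each side of the summit, and intervals are exact (Clopper-Pearson) at 95%. The motif test and the window search were checked on simulated data. The motifs planted there, in random sequence, differed more between sets than those reported here, so smaller differences were not checked. Alternatives were a shorter window, peak midpoints, a stricter signal, other E-box windows, merged peaks and single replicates. Python 3.11.15, pandas 2.3.3, scipy 1.17.1 and statsmodels 0.14.6 were used.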

Additional observations from a re-analysis of the deposited data

How the results depend on the processing

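The number of members fell to 200 with a window of 500 bp upstream and to 161 with only IDR peaks at or above the median signal, and the member genes to 404 and 326. With the shorter window the median gap between starts was 395.5 bp and the median distance from summit to gap midpoint 67.25 bp, against 564 and 108 bp; at or above the median signal they were 588 and 120 bp. Leaving E-boxes out only within 50 bp gave a gap of 579 bp. Lists of 1 replicate's strongest peaks gave 298 to 310 members, 611 to 628 genes, gaps of 578.5 to 588 bp and midpoint distances of 112.75 to 115.5 bp; they hold no second replicate, so the overlap share and the replicate ratio could not be given there. Not all were the same sites: 258 of the 315 members (81.9%) recurred within 100 bp without replicate 1, and 269 (85.4%) without replicate 2. Of the 642 genes, 537 and 546 recurred. The share of members overlapped in both replicates was 72.7% with each replicate's strongest peaks only. The number of panel motifs that differed was 2 at or above the median signal, 2 with motifs sought within 50 bp, 4 without replicate 1, 8 without replicate 2 and 0 for summits 100 to 400 bp upstream, a comparison with fewer peaks, in which Fisher's exact test gave 2 motifs an unadjusted p under 0.05. ACGCAG, which did not pass the test in the main comparison, changed sign in 5 settings, with differences of 2.95 points at or above the median signal, 0.217 without replicate 1, 1.05 without replicate 2, 1.27 within 50 bp and 1.81 against peaks outside promoter windows, all without passing the test; the cause was not tested. No motif that differed in the main comparison changed direction in the 11 settings run. The large-subunit ribosomal protein genes with a member fell to 9 at or above the median signal. Merged peaks and peak midpoints kept all 315 members. No paired analysis was possible because the study has 1 group.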
